A study of Mus musculus with 2 samples.

Results

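Kinesins are motor proteins that use ATP to move along microtubules or to take their ends apart. The protein-coding genes whose GENCODE M21 name is Kif or Kifc followed by a number were taken as the kinesins, which gave 42 of the 21474 protein-coding genes in the tables. They were divided by role into 11 mitotic kinesins, 10 transport kinesins and 21 others. The values come from 2 total RNA-seq libraries of forebrain from C57BL/6NCrl mouse embryos at embryonic day 11.5, with no genetic change or treatment in the labels. Each library is a pool of embryos of both sexes, 109 in replicate 1 and 88 in replicate 2, and started from 10 ng of RNA with spike-in RNAs added. There was 1 group only, so the data give the level of each kinesin in this tissue, the make-up of the family and the difference between the pools.

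In a dividing cell, kinesins push the spindle poles apart, hold chromosomes at the spindle equator, correct faulty microtubule attachments and build the bridge that is cut when the daughters separate. In a neuron, kinesins carry vesicles, mitochondria and membrane proteins outward along the axon, and several bind their cargo through separate adaptor proteins. The early forebrain wall holds both dividing neuroepithelial cells and the first neurons, so both uses of the family meet in this tissue.

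Levels are in TPM, a length-scaled share of all transcripts in a library, which allows genes to be compared with each other. Annotated genes summed to 23165223 expected counts in replicate 1 and 33597022 in replicate 2, and spike-ins held 13.0% and 12.7% of all TPM. The forebrain markers Lhx2, Pax6, Emx2 and Six3 reached 1 TPM in both libraries, and none of 5 markers of more posterior tissue did. Proliferation markers (5 of 5), radial glia markers (5 of 5) and newborn neuron markers (7 of 7) were detected, and so were 4 of 4 mature neuron markers, at means of 6.14 to 14.5 TPM. RNA of other cells was also present, with 5 of 5 erythroid, 5 of 5 mesenchymal, 4 of 4 endothelial and 3 of 3 microglial markers detected. Summed in replicates 1 and 2, these lists held 10901 and 11611 TPM (erythroid), 554 and 571 TPM (mesenchymal), 58.1 and 59.4 TPM (endothelial) and 24.7 and 26.0 TPM (microglial). Their part in the kinesin levels was not tested, and in whole tissue fewer cells of a type cannot be told apart from less RNA per cell.

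Of the 42 kinesins, 35 reached 1 TPM in both libraries (83.3%), against 58.6% of all protein-coding genes. All 11 mitotic and all 10 transport kinesins were among them, and 14 of the 21 others. At 20 TPM or more in both libraries stood 17 kinesins (40.5%), against 29.1% of all protein-coding genes, and these were 9 mitotic, 7 transport and 1 other kinesin. The family as a whole held 0.143% of mouse TPM in replicate 1 and 0.145% in replicate 2.

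**Figure D1:**
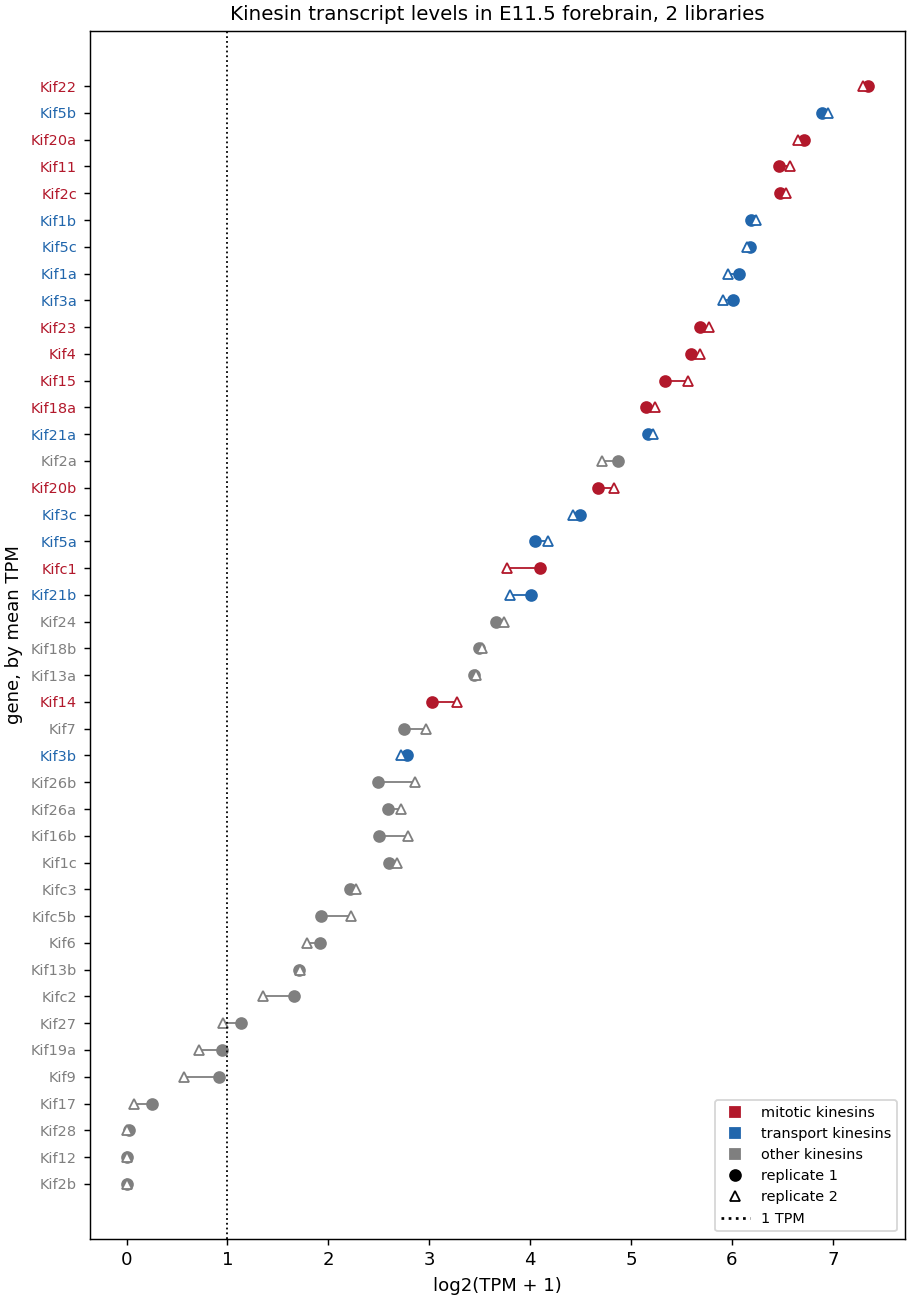
Level of each of the 42 kinesins as log2(TPM + 1), ordered by mean TPM from top to bottom, with replicate 1 as filled circles and replicate 2 as open triangles, and the dotted line at 1 TPM. Mitotic (red) and transport (blue) members interleave through the upper range from Kif22 downward, and the lowest mitotic member, Kif14, and the lowest transport member, Kif3b, have means of 7.94 and 5.72 TPM.

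Among the mitotic kinesins, those that act on chromosomes, on spindle poles and in cell separation were all detected, and Kif22 was the most abundant kinesin of all in both libraries. Kif22, a chromosome-binding motor that pushes chromosome arms toward the spindle equator, had 161 TPM in replicate 1 and 157 TPM in replicate 2 (ENSMUSG00000030677, chromosome 7, 127027729 to 127042471, GRCm38, minus strand). Kif4, the other DNA-binding kinesin of the list, which works with condensin and with Prc1 on the central spindle, had 47.4 and 50.6 TPM in the same order of replicates. The level of Kif22 was 3.25 ± 0.218 times that of Kif4 (SD, n = 2).

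Kif11, the motor that slides antiparallel microtubules apart and so keeps the spindle bipolar, had 87.6 TPM in replicate 1 and 94.6 TPM in replicate 2. Kif15, which can take over part of that work, had 39.5 and 46.2 TPM. The ratio of Kif11 to Kif15 was 2.13 ± 0.119 (SD, n = 2), and the ranges of the genes did not overlap. Kifc1, a motor that moves in the opposite direction and gathers microtubule minus ends at the poles, stood lower, at 16.2 and 12.6 TPM.

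Kif2c, which takes apart microtubule ends at kinetochores that are wrongly attached, had 87.9 TPM in replicate 1 and 91.7 TPM in replicate 2, a range that overlapped that of Kif11. Kif18a, which damps the movement of chromosomes by acting at kinetochore microtubule tips, had 34.5 and 36.9 TPM. Its relative Kif18b, counted with the other kinesins and known to act together with Kif2c at the tips of spindle microtubules, had 10.3 and 10.5 TPM.

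The motors of cell separation ranged from one of the highest mitotic kinesins to the lowest. Kif20a, which brings the chromosomal passenger complex to the central spindle, had 104 TPM in replicate 1 and 99.6 TPM in replicate 2 (chromosome 18, 34624613 to 34633277, GRCm38, plus strand). Kif23, the motor subunit of centralspindlin, had 50.4 and 53.5 TPM. Kif20b, a motor of late cytokinesis whose loss in mice gives a small brain, had 24.4 and 27.5 TPM, so Kif20a was 3.94 ± 0.443 times as abundant as Kif20b (SD, n = 2). Kif14, which works with citron kinase at the midbody, was the lowest of the mitotic list at 7.17 TPM in replicate 1 and 8.70 TPM in replicate 2.

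The transport kinesins covered much the same range, from 120 down to 5.72 TPM by mean. Kinesin-1 is a pair of identical or similar Kif5 heavy chains with light chains that bind cargo. Kif5b, the heavy chain used by most cell types, had 118 TPM in replicate 1 and 123 TPM in replicate 2 (chromosome 18, 6201002 to 6242174, GRCm38, minus strand). Kif5c, enriched in neurons, had 71.3 and 70.2 TPM. Kif5a, the heavy chain most restricted to neurons, had 15.6 and 17.1 TPM. The heavy chains thus divided as 58.0% ± 0.640 Kif5b, 34.1% ± 1.01 Kif5c and 7.87% ± 0.368 Kif5a (SD, n = 2), with no overlap between them. The 4 light chain genes summed to 255 TPM in replicate 1 and 238 TPM in replicate 2, of which Klc1 held 76.0% ± 0.854, and the ratio of summed heavy to summed light chains was 0.842 ± 0.0577 (SD, n = 2).

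Kinesin-3 motors carry synaptic vesicle precursors and other vesicles down the axon. Kif1b had 71.8 TPM in replicate 1 and 74.7 TPM in replicate 2 (chromosome 4, 149176319 to 149307693, GRCm38, minus strand). Kif1a had 66.2 and 61.3 TPM (chromosome 1, 93015464 to 93101951, GRCm38, minus strand). Both stood well above their widely expressed relative Kif1c, a motor of Golgi and secretory vesicle traffic, at 5.06 and 5.39 TPM. The ranges of Kif1b and Kif5c did not overlap, while those of Kif1a and Kif3a did.

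Heterotrimeric kinesin-2 joins Kif3a with either Kif3b or Kif3c and the adaptor Kifap3. With Kif3b it builds cilia, and the Kif3c form is described mainly in neurons. Kif3a had 63.4 TPM in replicate 1 and 59.3 TPM in replicate 2 (chromosome 11, 53567379 to 53601967, GRCm38, plus strand). Kif3c had 21.5 and 20.6 TPM. Kif3b had 5.85 and 5.59 TPM and was the lowest transport kinesin. On the gene level the shared subunit was therefore 10.7 ± 0.162 times Kif3b and 2.92 ± 0.0476 times Kif3c, and 2.29 ± 0.0368 times their sum (SD, n = 2). With long coding transcripts only, described below, these ratios were smaller. Kif3c exceeded Kif3b 3.67 ± 0.00433-fold. Kif3c reads can be mixed with those of an overlapping gene on the opposite strand: 38.2% of the 100-base stretches of Kif3c transcripts are also found in antisense orientation in other genes, chiefly 1110002L01Rik at 20.7 TPM in both replicates, and the handling of strand is not given in the sources used here.

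Kif21a and Kif21b, motors of the kinesin-4 family that limit microtubule growth and carry membrane proteins in neurons, differed in level. Kif21a had 34.8 TPM in replicate 1 and 36.3 TPM in replicate 2. Kif21b had 15.1 and 12.9 TPM. The ratio of Kif21a to Kif21b was 2.56 ± 0.357 (SD, n = 2).

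The promoters of mitotic kinesins shared a sequence feature that the choice of members did not use. The cell cycle genes homology region is a short promoter element known to bind the MuvB complex, which silences cell cycle genes in resting cells and activates them before mitosis. Its core, TTTGAA, was searched on both strands of RefSeq promoter windows (GRCm38.p6), which run from 250 bases before to 50 bases after an annotated start and were at hand for 33 members. It lay in the window of 9 of 10 mitotic, 1 of 7 transport and 4 of 16 other kinesins, against 20.2% of all 27025 genes of the table and 13.9% of 9869 protein-coding genes at 1 TPM or more.

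Within 30 bases of the start, a span chosen after the positions were seen, TTTGAA lay in 7 of 10 mitotic kinesins (Kif4, Kif11, Kif15, Kif20b, Kif22, Kif23 and Kifc1), 0 of 7 transport kinesins and 2 of 16 others. Those among the others were Kif18b, which acts in mitosis, and Kif26b. The share was 3.39% over all genes and 2.23% over detected protein-coding genes. Of the mitotic partners with a window, 8 of 17 held it there, among them Cdk1, Prc1 and Racgap1, and of the transport partners 0 of 14. Kif2c and Kif14 held it farther upstream, with the first base at positions -103 and -228, and Kif18a had no match in its window.

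The following stretches run from 60 bases before to 30 bases after the start, 5′ to 3′ on the strand of the gene, in GRCm38.p6 from RefSeq. They show where the motif lies in some mitotic kinesins beside some transport kinesins of high level. The transport member with TTTGAA in its window is Kif1a, where it runs from position -44 to -39. The stretch of Kif1a was not printed, because more than 30 of its bases lie in annotated exons. The printed transport stretches therefore do not stand for all transport kinesins. Capitals mark TTTGAA and CCAAT on either strand, so that TTCAAA and ATTGG are their reverse complements.
Kif11 (mitotic, chr19:37376322-37376411, plus strand): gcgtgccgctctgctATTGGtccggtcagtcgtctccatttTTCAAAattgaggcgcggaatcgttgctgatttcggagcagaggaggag
Kif23 (mitotic, chr9:61946770-61946859, minus strand): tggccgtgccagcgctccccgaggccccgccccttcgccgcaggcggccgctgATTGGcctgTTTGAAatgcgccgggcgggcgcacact
Kif20b (mitotic, chr19:34922298-34922387, plus strand): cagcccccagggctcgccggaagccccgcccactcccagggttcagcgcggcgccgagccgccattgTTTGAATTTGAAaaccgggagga
Kif1b (transport, chr4:149307704-149307793, minus strand): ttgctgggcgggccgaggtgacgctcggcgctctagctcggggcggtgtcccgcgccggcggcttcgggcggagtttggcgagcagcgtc
Kif5c (transport, chr2:49619226-49619315, plus strand): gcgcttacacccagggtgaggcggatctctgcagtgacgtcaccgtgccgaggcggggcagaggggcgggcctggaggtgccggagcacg
Kif3a (transport, chr11:53567309-53567398, plus strand): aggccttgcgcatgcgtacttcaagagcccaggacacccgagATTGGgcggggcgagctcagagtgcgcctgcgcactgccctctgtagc

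In Kif11 the motif runs on the reverse strand from position -19 to -14, with ATTGG upstream of it, and in Kif20b 2 copies follow each other from position 8 to 19. CCAAT lay anywhere in the window of 6 of 10 mitotic, 3 of 7 transport and 7 of 16 other kinesins, and of 41.1% of all genes. GGGCGG, the core of the GC box, lay anywhere in the window of 5 of 10 mitotic, 5 of 7 transport and 11 of 16 other kinesins. The share was 38.2% over all genes and 70.8% over detected protein-coding genes. Within 30 bases of the start it lay in 1 of 10 mitotic, 4 of 7 transport and 4 of 16 other kinesins. The share there was 16.5% over all genes and 33.9% over detected protein-coding genes. The variant TTCGAA was found in Kif24 only among the members. These matches describe letters in a window, with no test, and show neither binding nor a cause of the levels. No window was at hand for Kif20a, Kif5a, Kif5b, Kif21b and 5 of the other kinesins.

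Set side by side, the mitotic and transport classes had nearly the same middle level. The median of log2(TPM + 1) was 5.60 in replicate 1 and 5.69 in replicate 2 for the mitotic kinesins, and 5.59 and 5.57 for the transport kinesins. Mitotic minus transport was 0.01 in replicate 1 and 0.12 in replicate 2, or 0.07 ± 0.08 (SD, n = 2), a difference smaller than its own spread between the pools. All protein-coding genes had medians of 2.32 and 2.29 in the same order of replicates, and the other kinesins 1.92 and 2.22. No test was made over genes, which are not replicates, and none over the 2 libraries.

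**Figure D2:**
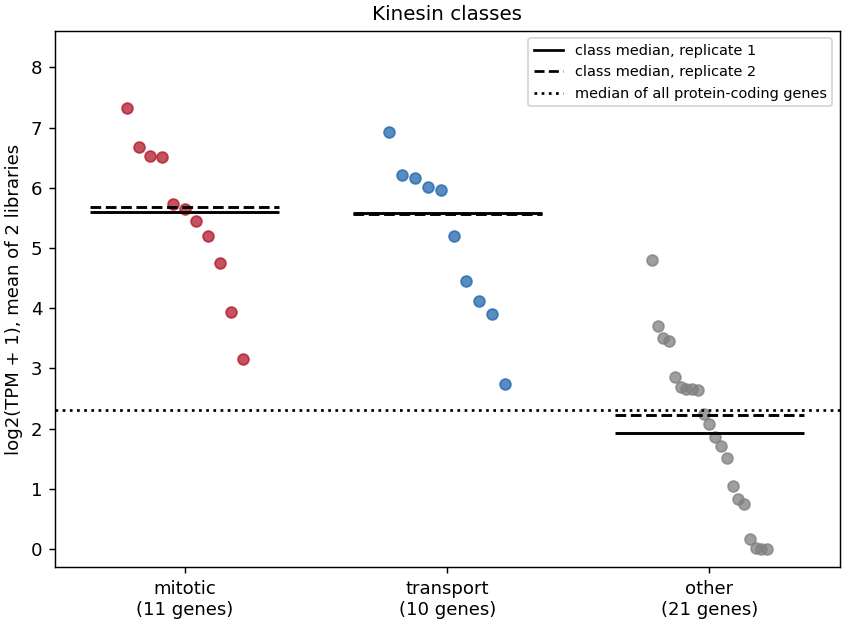
Each point is 1 kinesin, by class, as log2(TPM + 1) of its mean TPM over the 2 libraries. Lines show class medians in replicate 1 (solid) and replicate 2 (dashed) and the median of all protein-coding genes (dotted). The mitotic and transport medians lie at 5.60 to 5.69 and 5.57 to 5.59, and all 21 other kinesins lie below both.

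By sum, the mitotic class was the larger. It held 660 TPM in replicate 1 and 678 TPM in replicate 2, against 483 and 481 TPM in the transport class and 102 and 104 TPM in the other kinesins. As shares of the kinesin total these were 53.4% ± 0.494 mitotic, 38.4% ± 0.511 transport and 8.21% ± 0.0174 other (SD, n = 2). In the mitotic and transport classes 3 genes carried most of the sum, with Kif22, Kif20a and Kif11 at 52.6% ± 1.22 of the mitotic class and Kif5b, Kif1b and Kif5c at 54.8% ± 1.22 of the transport class. By expected counts, which weigh a gene by its length, the order of the classes was the opposite, at 44.5% ± 0.588 mitotic and 46.8% ± 0.820 transport.

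The class difference also depended on which transcripts and genes were counted. With only transcripts that hold an annotated coding sequence of 1000 bases or more, a choice made after the data were seen, mitotic minus transport was 0.50 ± 0.12 log2 units, larger than its spread between the pools. With the mean in place of the median it was 0.37 ± 0.06. Kif18b and Cenpe are among the mitotic motors that the list leaves out (Cenpe because its name does not begin with Kif). With both added the difference was -0.11 ± 0.15. Only the mitotic list was widened in this way, and no further member such as Kif2a was added to it. Kif1c, Kif13a and Kif17, counted with the other kinesins, also have transport roles, and a wider transport list was not tested.

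The transcript tables show where the long coding transcripts matter. The gene level of Kif1a came mainly from short transcripts: Kif1a-206, of 528 bases and 109 codons, held 36.6% of the gene's TPM in replicate 1 and 34.4% in replicate 2, and Kif1a-208, of 570 bases with no coding sequence, held 20.2% and 23.0%. Kif1a-204, of 8206 bases and 1697 codons, held 23.8% and 21.6% of TPM but 60.1% and 56.6% of expected counts. Long coding transcripts of Kif1a therefore stood at 28.2 TPM in replicate 1 and 25.6 TPM in replicate 2, which is 42.6% and 41.8% of the gene value. On that scale Kif1b was 2.26 ± 0.244 times Kif1a, against 1.15 ± 0.0950 times on the gene level (SD, n = 2).

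Kif1b is the gene in which alternative 3′ exons give motors with different cargo-binding tails. The long form Kif1b-203, with 1816 codons, held 44.6% of TPM in replicate 1 and 46.0% in replicate 2. The short form Kif1b-201, with 1150 codons, held 37.1% and 37.2%. By level both forms were well detected, at 33.2 ± 1.69 for the long and 27.2 ± 0.799 for the short form (SD, n = 2), and their ranges did not overlap.

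Other transport genes were also divided. Kif5b-202, a 2006-base transcript with 619 codons, held 49.9% of the gene's TPM in replicate 1 and 50.8% in replicate 2, and Kif5b-201, with 963 codons, held 44.2% and 42.4%. By expected counts Kif5b-201 held 72.0% ± 0.916 and Kif5b-202 26.9% ± 0.778. Both count as long coding transcripts here, so the long coding scale does not separate them. Kif3a-206, a 770-base transcript annotated as a target of nonsense-mediated decay, held 23.1% and 20.2%. With long coding transcripts only, Kif3a stood at 44.6 ± 0.601 TPM, and the ratio of Kif3a to Kif3b was 7.80 ± 0.356. On that scale Kif3a was 2.12 ± 0.0943 times Kif3c and 1.67 ± 0.0746 times the sum of Kif3b and Kif3c (SD, n = 2). Kif21a was split between Kif21a-205 (42.5% ± 1.57) and Kif21a-204 (42.0% ± 3.29), which differ by 1573 against 1567 codons.

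Genes also differed in whether 1 transcript made up most of their level. A single transcript held 80% or more of the gene's TPM in both libraries in 8 of 11 mitotic, 5 of 10 transport and 6 of 14 other detected kinesins. The mitotic exceptions were Kif14, Kif20a and Kifc1. In Kif20a both transcripts have the same number of codons, 887. In Kif14 a transcript with a retained intron, Kif14-202, held 26.9% and 23.2%. The deposited transcript tables list only 1 transcript for Kif11, Kif15, Kif20b, Kif22 and Kif23, and also for Kif3b, Kif3c and Kif5a, so a single form is given there by the annotation used for quantification.

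**Figure D3:**
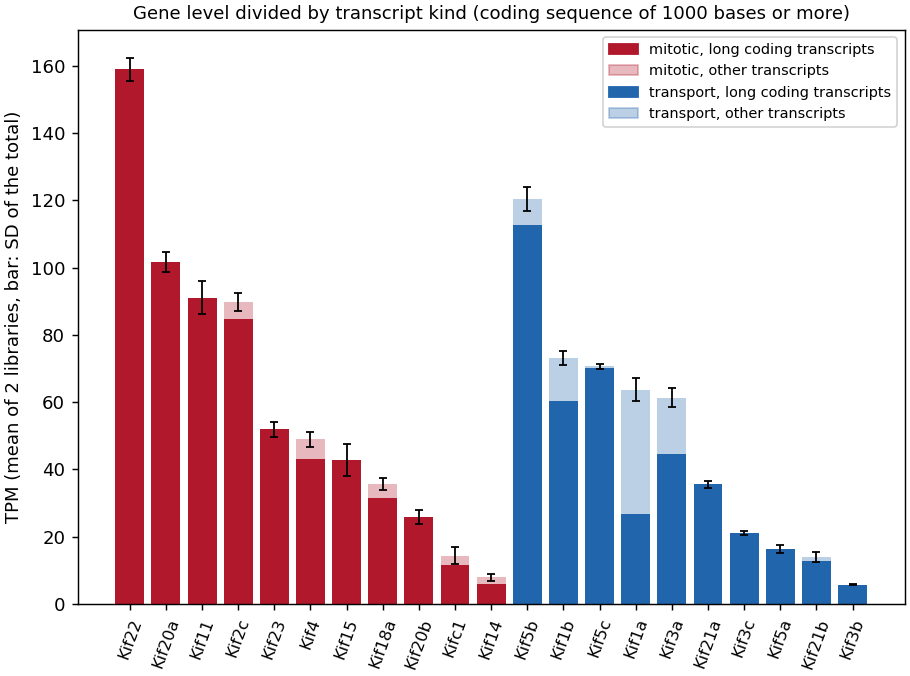
Mean TPM of 2 libraries for each mitotic (red) and transport (blue) kinesin, with the dark part from transcripts holding a coding sequence of 1000 bases or more and the pale part from all others, and the error bar the SD of the gene total (n = 2). Kif1a and Kif3a have the largest pale parts, with long coding transcripts at 26.9 of 63.7 TPM and 44.6 of 61.3 TPM.

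Among the 21 other kinesins, 7 reached 5 TPM in both libraries. Kif2a, a microtubule depolymerase like Kif2c, had 28.3 TPM in replicate 1 and 25.2 TPM in replicate 2. Of its 100-base stretches, 16.8% are found in antisense orientation in Dimt1. Kif24, a centriolar depolymerase that restrains cilium formation, had 11.7 and 12.4 TPM, of which long coding transcripts gave 3.70 and 3.33 TPM. Kif13a, a motor of endosomes, had 9.89 and 10.0 TPM.

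The last members above 5 TPM include a motor of signalling. Kif7, which regulates Hedgehog signalling at the tip of the primary cilium, had 5.74 TPM in replicate 1 and 6.83 TPM in replicate 2. Kif26a, a kinesin without motor activity that acts in signalling of enteric neurons, had 5.04 and 5.57 TPM. With Kif18b and Kif1c, given above, these complete the 7. Kif26b and Kif16b passed 5 TPM in replicate 2 only, at 4.64 and 6.26 TPM for Kif26b and at 4.67 and 5.89 TPM for Kif16b. The remaining detected members, Kifc3, Kifc5b, Kif6, Kif13b and Kifc2, had means from 3.75 down to 1.86 TPM.

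Kinesins of motile cilia were at the low end of the family. Kif6 had 2.78 TPM in replicate 1 and 2.45 TPM in replicate 2, of which long coding transcripts gave 0.54 and 0.41 TPM. Kif27 had 1.20 and 0.94 TPM, Kif19a, which trims ciliary tips, had 0.93 and 0.65 TPM, and Kif9 had 0.89 and 0.48 TPM. Of 4 markers of multiciliated cells, 3 reached 1 TPM in both libraries. They were Foxj1 at 5.42 and 4.19 TPM, Ccdc39 at 2.48 and 3.05 TPM and Rsph1 at 1.66 and 1.91 TPM. The axonemal motor Dnah5 was at 0.04 and 0.06 TPM. The median of all protein-coding genes was 3.99 and 3.89 TPM, below Foxj1.

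At the bottom of the family 4 kinesins had at most 10 expected counts summed. Kif17, a motor of dendritic receptor transport, had 8 expected counts in replicate 1 and 2 in replicate 2, and Kif28 had 1 and 0. Kif12 and Kif2b had no count in either library. A limit of 3 counts at 1 effective length per gene, for counting error only, is 0.137 and 0.0949 TPM for Kif12 in replicates 1 and 2. For Kif2b this limit is 0.0915 and 0.0633 TPM. The upper bounds that the authors' tables give were higher for Kif12, at 0.756 and 0.528 TPM. For Kif2b they were 0.0874 and 0.0611 TPM. The 3-count limit is therefore not a firm ceiling for Kif12.

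The levels of Kifc1 and Kifc5b, both on chromosome 17, are uncertain because the genes share sequence. The shared part is 17.0% of the 100-base stretches of Kifc1 and 16.6% of those of Kifc5b, and their expected counts were not whole. Kifc5b stood at 2.79 TPM in replicate 1 and 3.66 TPM in replicate 2, and the division of shared reads between the genes rests on the authors' estimation. Stretches in antisense orientation to a neighbour made up 21.4% in Kif20a (with Cdc23, at 134 TPM in replicate 1 and 132 TPM in replicate 2) and 13.3% in Kif4 (with Pdzd11, at 109 and 106 TPM). Without strand, reads there cannot be assigned.

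Transcripts of proteins that work beside the mitotic kinesins had a higher median than the motors. All 20 listed partners, which include the motor Cenpe at 41.3 ± 1.66 TPM, were detected, with a median log2(TPM + 1) of 6.88 ± 0.10, against 5.64 ± 0.06 for the mitotic kinesins and 2.30 ± 0.02 for all protein-coding genes (SD, n = 2). The 4 highest were Cdk1, the mitotic kinase, at 364 ± 17.7 TPM, its cyclin Ccnb1 at 361 ± 2.50 TPM, and the chromosomal passenger subunits Birc5 at 284 ± 5.73 TPM and Cdca8 at 228 ± 5.44 TPM. In the pairs for which a ratio was taken, the motor stood below its partner. Kif23 was 0.317 ± 0.00292 of Racgap1, the other centralspindlin subunit, and Kif4 was 0.257 ± 0.0153 of Prc1 (SD, n = 2). Kif11 was 0.671 ± 0.00967 of Tpx2, which targets it to the spindle (SD, n = 2). This was not a rule for all motors. Kif20a, at 102 ± 3.04 TPM, stood below Birc5 and Cdca8 but above the passenger subunit Incenp, at 68.1 ± 1.52 TPM.

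The listed partners of the transport kinesins, which are light chains, adaptors and vesicle GTPases, had a lower median than the motors. All 18 were detected, with a median log2(TPM + 1) of 4.89 ± 0.04, against 5.58 ± 0.01 for the transport kinesins. The 4 highest were Klc1 at 188 ± 11.4 TPM, the lysosomal GTPases Arl8b at 63.8 ± 2.26 TPM and Arl8a at 56.0 ± 3.37 TPM, and the Kif1 binding protein gene Kif1bp at 43.1 ± 3.66 TPM. Kif3a was 1.65 ± 0.177 times its adaptor Kifap3, or 1.20 ± 0.0556 times when long coding transcripts only are counted.

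Cytoplasmic dynein, which moves toward microtubule minus ends and so opposes kinesins, was abundant. All 16 listed genes of dynein, dynactin and their regulators were detected, with a median log2(TPM + 1) of 6.30 ± 0.04 (SD, n = 2). The highest were the light chains Dynll1 at 1200 ± 10.2 TPM and Dynlrb1 at 363 ± 2.11 TPM, Dynlt1f at 187 ± 6.38 TPM, whose expected counts were not whole, and Nde1, a regulator needed in dividing neural progenitors, at 158 ± 0.771 TPM. The heavy chain Dync1h1 was at 76.8 TPM in replicate 1 and 73.7 TPM in replicate 2, by mean between Kif2c and Kif1b.

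The pools differed little in their kinesins, and about as much as in other genes of like depth. Differences were taken as log2 ratios of TMM-scaled counts, replicate 1 over replicate 2, and called at 1.5-fold in either direction with no p-value, since each side is 1 library. Of 39 kinesins with 10 or more counts summed, 2 were called, against 13.6% of all genes with that many counts. They were Kif9 (39 counts in replicate 1 and 30 in replicate 2, log2 ratio 0.90) and Kif17 (8 and 2 counts, log2 ratio 2.29, 95% interval 0.20 to 5.80 for counting error only). The 2 sets differ in depth, as 29 of the 39 kinesins but 8779 of the 18297 genes had 1000 or more counts. At that depth, 0 of 29 kinesins were called, against 0.114% of genes. The median size of the log2 ratio there, without its sign, was 0.094 for kinesins and 0.088 for all genes. The kinesins were thus no steadier between the pools than other genes of that depth.

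Below the calling size, the direction was uneven between the classes. Replicate 1 was below replicate 2 in 8 of 11 mitotic, 5 of 10 transport and 7 of 8 other kinesins with 1000 or more counts, against 50.9% of genes at that depth. The median log2 ratio was -0.09 for mitotic kinesins, -0.01 for transport kinesins and -0.00364 for all genes at that depth. Within the mitotic and transport classes the largest differences were Kif14 at -0.31 (95% interval -0.44 to -0.19), Kif15 at -0.23 (-0.30 to -0.16) and Kif21b at 0.23 (0.14 to 0.31). Among the other kinesins, Kif16b stood at -0.28, Kif7 at -0.25 and Kif26b at -0.24. Length moved with the ratio: among protein-coding genes at that depth, 43.5% lay below 0 under 2000 bases of effective length, 49.2% from 2000 to 4000 bases, 60.6% from 4000 to 6000 bases and 71.9% from 6000 bases up. Of the kinesins, 0 of 2, 6 of 9, 7 of 8 and 7 of 10 did so in the same order of lengths. The part of length in the kinesin ratios was not tested.

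**Figure D4:**
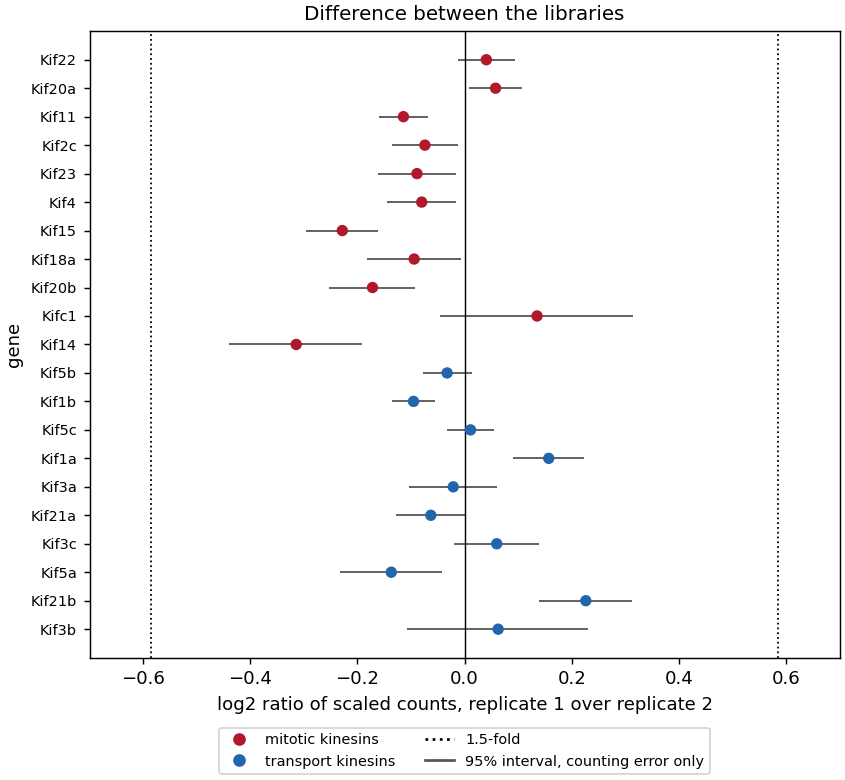
Log2 ratio of scaled counts, replicate 1 over replicate 2, for each mitotic (red) and transport (blue) kinesin, with bars for the 95% interval of counting error and dotted lines at 1.5-fold. All 21 points lie within the dotted lines, and 8 of 11 mitotic and 5 of 10 transport kinesins lie left of 0.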

How the data were processed

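Total RNA-seq libraries of forebrain were grouped by the labels as replicates 1 and 2 of 1 group. The alignment was to mm10 and its transcriptome with GENCODE M4, per the text notes deposited beside the tables. Which aligner and quantifier were used, in which version and with which strand setting, is not given in the sources used here. Deposited tables gave expected counts (estimated, so not always whole), TPM and a posterior mean TPM per gene and transcript, per the file headers, and the authors' FPKM per gene. The authors' TPM are scaled over all entries, spike-ins (97 entries) included. The TPM of short transcripts rest on few reads each and are less certain.

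Names, types and coordinates came from GENCODE M21 (GRCm38), matched by gene identifier, and 884 identifiers had no match there. Entries with numeric identifiers (26248) and spike-ins (5.66% and 5.49% of expected counts) stayed out of library sizes. Expected counts were rounded for ratios, which were scaled by TMM in edgeR 4.0.16 (R 4.3.3; alternative DESeq2 1.42.0), with a prior of 0.5 counts. Intervals are exact binomial (Clopper-Pearson, SciPy 1.17.1), cover counting error only, and rest on reads without molecular identifiers. The ratio step was tested on simulated data. No p-value was computed, as the series is 1 group of 2 libraries.

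The members, classes and gene lists were chosen with earlier results of these data known. Every mitotic and transport member, the other members that reached 5 TPM in each library and the 4 highest partners of each list were named by rule; Dync1h1, Kif6, Kif9, Kif17, Kif19a, Kif27, Kif28, the members between these levels and the genes of overlaps and motifs were named after their values were seen. Shared sequence was counted as exact 100-base stretches of GENCODE M21 transcripts. Stretches of promoter were printed where at most 30 bases lie in annotated exons of the gene. One marker gene of the lists is not reported here.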

Additional observations from a re-analysis of the deposited data

How the results depend on the processing

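No paired analysis was possible because the series holds 1 group. The class difference of 0.07 log2 units was 0.37 with the mean in place of the median, 0.50 with long coding transcripts only and -0.11 with Kif18b and Cenpe added to the mitotic list, the last 2 being choices made after the data were seen; the cause was not tested. Posterior mean TPM, FPKM, a pseudocount of 0.1, rescaling over mouse genes, a filter at 1 TPM and leaving out Kifc1 kept it between 0.05 and 0.11, and with either library left out it ran from 0.01 to 0.12. The mitotic share of 53.4% was 44.5% by expected counts, which weigh genes by length, and 57.0% with long coding transcripts, and the transport share of 38.4% was 46.8% and 35.7% in the same order. Leaving out either library gave 53.0% to 53.7% and 38.1% to 38.8%. Detected kinesins numbered 37 at 0.5 TPM, 28 at 5 TPM, 36 by posterior mean, and 35 to 36 with either library left out. The count of 2 kinesins differing between the libraries stayed at 2 with DESeq2 size factors and with library totals, was 3 with no filter on counts and 1 at 2-fold. With long coding transcripts only, 4 member levels moved by over 1.5 times (Kif1a, Kif6, Kif19a, Kif24). By posterior mean 5 did (Kif2b, Kif12, Kif17, Kif19a, Kif28), all below 1 TPM before that change. By posterior mean Kif19a passed 1 TPM in both libraries, at 1.68 in replicate 1 and 1.15 in replicate 2. By share of counts, 10 of 46 named transcripts moved by over 1.5 times. The planned search for motor domain motifs was not run, as no protein sequences were used here. With 2 pools, the SD rests on 1 difference, and members under 10 counts give no usable ratio.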
